A study of Bos taurus with 16 samples.

Results

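A total of 10 genes of prostaglandin synthesis, transport, breakdown and sensing were followed in bovine blastocysts from cows fed a control or a methionine-rich diet. They were *PTGS1*, *PTGS2*, *PTGES*, *PTGES2*, *PTGES3*, *PTGDS*, *SLCO2A1*, *HPGD*, *CBR1* and *PPARG*. Members were found by their gene symbol in the count tables, and each matched 1 locus, which gave 10 of the 22358 loci that the tables list. Values are given for 9 of them, all but *PPARG*.

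Embryos came from 8 Holstein cows, 4 per treatment, and the blastocysts of each cow were divided into 2 pools, which gave 16 pools. Control cows (cows 1 to 4, pools C1.1 to C4.2) received the basal diet without added methionine, and cows of the methionine-rich treatment (cows 5 to 8, pools M5.1 to M8.2) received the same basal diet with rumen-protected methionine, in both cases from calving until embryo recovery. All cows were superovulated and inseminated and their embryos were flushed, although the tissue label of the samples reads IVF embryos. The number of blastocysts differed between pools and was not entered in any fit. All cows were lactating, and each pool held embryos of 1 cow only. The paper lists 1 blastocyst each for pools C4.1, C4.2 and M8.2. No control pool held more than 2 blastocysts, whereas M5.1, M5.2, M6.1, M6.2 and M7.2 did, so blastocyst number was partly confounded with treatment. The RNA quality number in the paper was lower in M5.1, M5.2, M6.1, M6.2 and M7.1 than in every control pool with a value. It was not entered in any fit either.

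Prostaglandins are lipid signals made from arachidonic acid, which cyclooxygenases convert to prostaglandin H2 and terminal synthases then convert to prostaglandins E2, D2 or F2 alpha. They leave and enter cells through transporters and are inactivated by dehydrogenation, and some of their derivatives bind the nuclear receptor *PPARG*. In cattle, prostaglandin F2 alpha from the uterus ends the life of the corpus luteum, and the trophoblast of the elongating conceptus is itself a source of prostaglandins around the time of maternal recognition of pregnancy.

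Total counts ranged from 5624126 to 7826542 in 15 pools. Pool C3.2 held 1745048 counts. It was left out, following the methods of the original work, and 7 pools of the control treatment were compared with 8 of the methionine-rich treatment. Values are CPM (counts scaled to a common pool total), and a floor of 3 counts was worth between 0.383 and 0.533 CPM in the 15 pools. The trophectoderm markers were detected at 8 of 8 loci over the 15 pools together. Their summed levels were 3781 to 9678 CPM in control and 3051 to 7036 CPM in methionine-rich pools. Most of the sum was *KRT18* (mean 3490 CPM over the 15 pools). *CDX2* had 0 counts in C4.1, M8.1 and M8.2, and *ELF5* held 80 counts in C4.1, 73 in M6.1 and 0 to 2 in the other pools. The pluripotency markers of the inner cell mass summed to 33.1 to 115.3 CPM in control and 34.0 to 82.0 CPM in methionine-rich pools. Pool C2.1 stood apart, with 2405 CPM over the leukocyte list against at most 30.7 CPM in every other of the 15 pools. Most of it came from *LAPTM5*, *NKG7*, *TYROBP* and *LCP1* (6969, 2698, 2122 and 1031 counts). *CORO1A* and *CD74* held only 14 counts each in it, and *CD3E* and *CD2* held 0. *PTPRC* (18 counts) and *FCER1G* (5 counts) were higher in M8.1 (48 counts) and M8.2 (8 counts). Only part of the leukocyte list therefore marked C2.1. The stroma list summed to 592 CPM in C2.1 against at most 138.2 CPM, most of it from *VIM* (3283 counts). In that pool *COL1A1*, *COL1A2*, *COL3A1* and *DCN* held only 4, 32, 10 and 1 counts, so the list as a whole did not mark stroma. A low count at a locus need not mean low expression, since the 2 loci named *GAPDH* held only 0 to 5 and 1 to 64 counts in the 15 pools.

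Of these 9 members, 7 had at least 1 count in some pool, and *PTGDS* and *SLCO2A1* had 0 counts in all 16 pools. The filter on low values, 15 or more CPM in sum over the 15 pools, was passed by 10519 loci and by 6 members, *PTGS1*, *PTGS2*, *PTGES*, *PTGES2*, *PTGES3* and *CBR1*. *PTGS1* with 25.8 and *PTGES* with 31.5 summed CPM lay just above it, and *HPGD* with 8.72 lay below it. The filter used all pools together, so a member could pass it on the strength of a single pool. None of the 6 tested members was differentially expressed by the exact test of edgeR (false discovery rate (FDR) under 0.1 and a 2-fold difference), which called 110 of the 10519 loci, or 1.05%. The quasi-likelihood test of edgeR called 0 members and 0 loci, that is 0%, with 909 loci (8.64%) at an unadjusted p under 0.05, 1 of them *PTGS2*. The exact test put 898 loci (8.54%) and 0 members at an unadjusted p under 0.05, DESeq2 called 67 loci and voom called 0, and neither called a member.

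**Figure D1:**
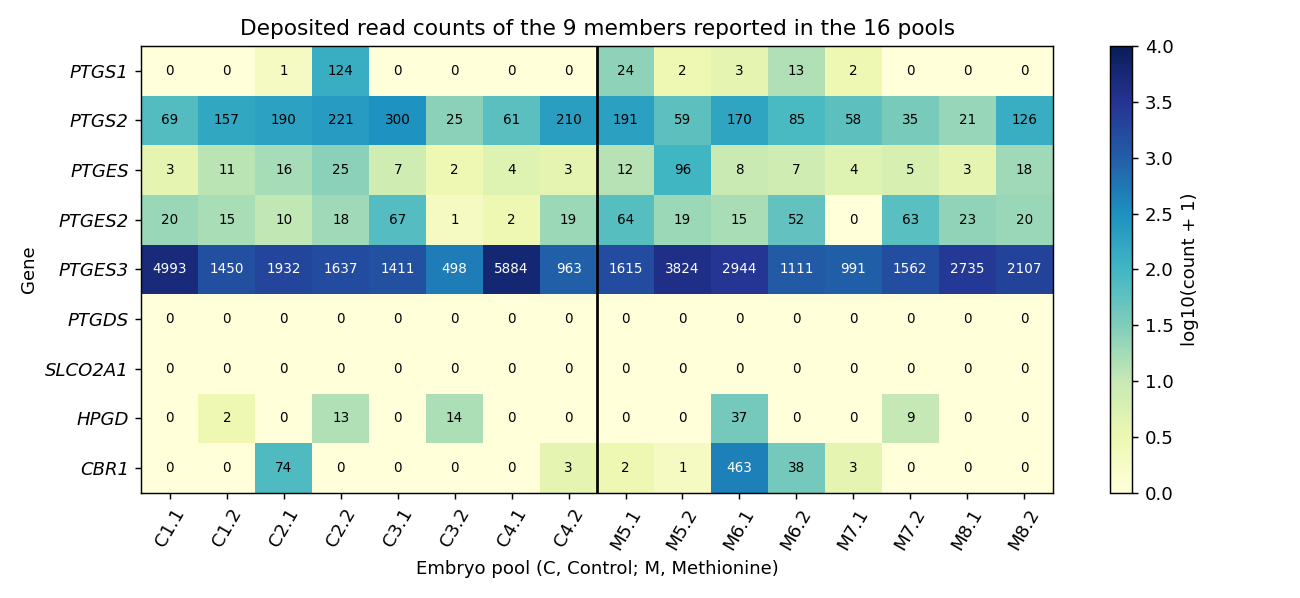
Deposited read counts of the 9 members reported (vertical) in each of the 16 embryo pools (horizontal, control pools C1.1 to C4.2 left of the line and methionine-rich pools M5.1 to M8.2 right of it), with the colour showing log10 of the count plus 1. *PTGES3* held 963 to 5884 counts and *PTGS2* 21 to 300 counts in the 15 pools, *PTGDS* and *SLCO2A1* were empty, and the counts of *PTGS1*, *CBR1* and *HPGD* lay mostly in 1 or 2 pools.

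*PTGS2* (XLOC_005978), the inducible cyclooxygenase that catalyses the committed step of prostaglandin synthesis, had the smallest unadjusted p of the members by the exact test, the quasi-likelihood test, DESeq2 and voom over the 15 pools, without passing the threshold of any after adjustment. It was detected in all 16 pools. The control pools held 9.10 CPM at the lowest (C1.1), a median of 27.0 CPM and 40.4 CPM at the highest (C3.1). The methionine-rich pools held 2.92 CPM at the lowest (M8.1), a median of 11.0 CPM and 26.3 CPM at the highest (M5.1). The treatments overlapped, with 4 methionine-rich pools (M5.2, M7.1, M7.2 and M8.1) below every control pool and 4 control pools (C2.1, C2.2, C3.1 and C4.2) above every methionine-rich pool. Mean *PTGS2* was 25.4 ± 12.1 CPM (SD, n = 7 pools) in control and 13.0 ± 8.60 CPM (SD, n = 8 pools) in methionine-rich embryos.

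The fitted log2 fold change of *PTGS2*, methionine-rich over control, was -1.03 (exact test of edgeR, p = 0.0601, FDR = 0.631), or 2.04-fold lower with methionine. The quasi-likelihood test of edgeR gave FDR = 0.555. DESeq2 gave -1.03 ± 0.470 (SE, adjusted p = 0.546), and voom, with cows as random effects, gave -1.08 with a 95% interval of -2.13 to -0.03 (adjusted p = 0.993). The median log2 fold change of all tested loci was -0.05. Leaving out each pool in turn gave *PTGS2* values between -1.21 and -0.84. It was -0.89 without C2.1, the pool in which part of the leukocyte markers was high. In bulk pools, fewer cells that express a gene and less of its RNA per cell cannot be told apart.

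Cows are the independent units of the diet. The p-values of the exact test, the quasi-likelihood test and DESeq2 treat the pools of a cow as separate samples, whereas voom entered cows as random effects. By cow, the mean level of *PTGS2* was highest in cow 3 (40.4 CPM, 1 pool) and cow 2 (34.0 CPM), both control. Cows 6, 4, 5 and 1 followed with 18.7, 18.5, 17.1 and 16.3 CPM, an order in which treatments alternated, and the lowest levels were those of the methionine-rich cows 8 (9.97 CPM) and 7 (6.36 CPM). Means over cows were 27.3 CPM in control and 13.0 CPM in methionine-rich cows, a difference of -14.3 CPM (exact permutation test over the 70 assignments of cows, two-sided, p = 0.143, where the smallest possible p is 0.0286). The treatments did not separate by cow for any of the 6 tested members, against 232 of the 10519 tested loci (2.21%).

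Pools of the same cow differed in *PTGS2* almost as much as pools of different cows. Pool M8.2 held 5.82 times (exact 95% interval 3.65 to 9.73) the level of M8.1, and M5.1 held 3.38 times (2.51 to 4.61) that of M5.2. In cow 2 the pools were nearly equal, at 1.01 times (0.830 to 1.24). The mean absolute difference between pools of a cow was 1.13 on the log2 scale, against 1.14 over all 11025 ways to pair the pools within treatments (exact permutation test, one-sided, p = 0.455). Of the 6 tested members, 0 had pools of a cow closer than other pools at an unadjusted p under 0.05, a mark that 625 of the 10519 loci (5.94%) passed and that no locus passed at an adjusted p under 0.1. Intervals of these ratios cover counting error only, since the RNA was amplified and the reads carry no molecular identifiers.

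*PTGS1* (XLOC_002636), the constitutive cyclooxygenase, reached 10 counts in 3 of the 15 pools, and 73.4% of its counts in the 15 pools lay in C2.2. That pool held 124 counts (19.2 CPM), whereas C2.1, the other pool of cow 2, held 1 count and the remaining control pools held 0. Among methionine-rich pools, M5.1 held 24 counts (3.31 CPM) and M6.2 held 13, while the other pools held 0 to 3. The means, 2.77 ± 7.24 CPM (SD, n = 7) in control and 0.803 ± 1.25 CPM (SD, n = 8) in methionine-rich pools, had SDs larger than themselves. The log2 fold change of *PTGS1* was -1.71 by the exact test of edgeR (FDR = 0.977) and turned to 3.83 ± 2.09 (SE, adjusted p = 0.700) in DESeq2, whose default settings can replace a count that stands far from its group. It was 0.79 by voom, with an interval of -1.92 to 3.51. Counts above 0 were found in 2 of 7 control and 5 of 8 methionine-rich pools. A count of 0 allows a level of up to 3 counts, or 0.383 to 0.533 CPM in a pool.

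**Figure D2:**
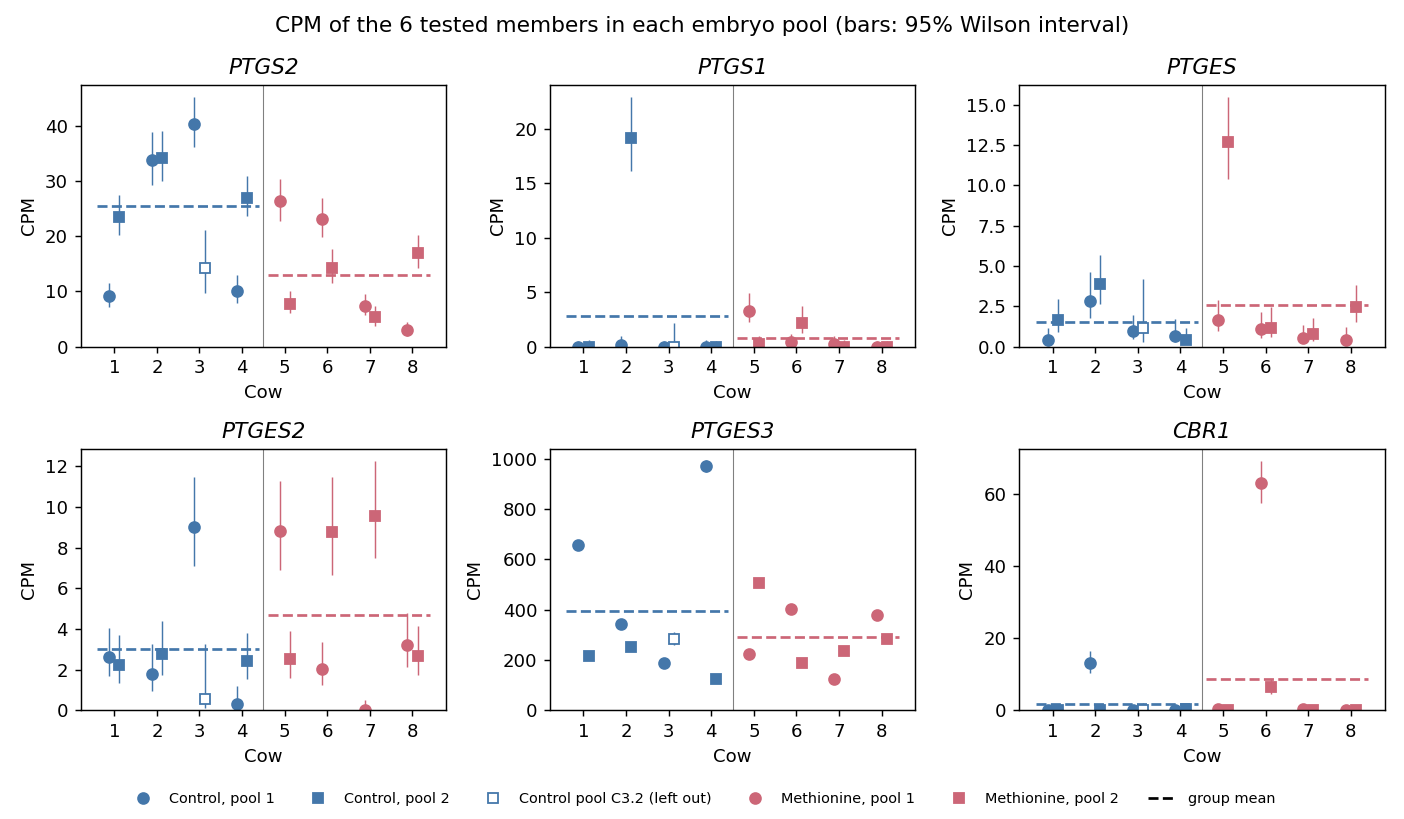
Level in CPM (vertical, from 0) of the 6 tested members in each embryo pool by cow (horizontal), with circles and squares for the first and second pool of a cow, vertical bars for the 95% Wilson interval of the count, dashed lines for the treatment means without C3.2, and C3.2 as the open square. For *PTGS2* the means were 25.4 and 13.0 CPM with overlapping pools, while for *PTGS1*, *PTGES* and *CBR1* single pools at 19.2, 12.7 and 63.1 CPM carried the treatment with the higher mean.

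The terminal synthases of prostaglandin E2 were all detected, and none differed between treatments beyond the spread of the pools. *PTGES* (XLOC_002715), the microsomal enzyme that usually acts together with *PTGS2*, held 0.386 to 3.87 CPM in control pools, with a median of 0.943 CPM. In methionine-rich pools it held 0.418 to 12.7 CPM, with a median of 1.13 CPM. The highest value was that of M5.2, with 96 counts, 43.2% of all *PTGES* counts in the 15 pools and 7.66 times (exact 95% interval 4.19 to 15.3) the level of M5.1 from the same cow. The remaining pools of both treatments overlapped. Mean *PTGES* was 1.54 ± 1.35 CPM (SD, n = 7) in control and 2.59 ± 4.12 CPM (SD, n = 8) in methionine-rich pools. The log2 fold change was 0.76 (exact test of edgeR, FDR = 0.9995) and became -0.41 without M5.2.

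*PTGES2* (XLOC_002694), a second membrane-associated synthase, was more evenly spread, with 16.5% of its counts in the highest pool. Control pools ranged from 0.330 CPM (C4.1) to 9.03 CPM (C3.1), with a median of 2.44 CPM, and 6 of the 7 lay at or under 20 counts. Methionine-rich pools ranged from 0 (M7.1) to 9.57 CPM (M7.2), with a median of 2.95 CPM, so that the lowest and the highest value of the 15 pools came from the same cow. Pools M5.1, M6.2 and M7.2 held 64, 52 and 63 counts, as C3.1 did with 67, and the other 4 methionine-rich pools above 0 held 15 to 23. Mean *PTGES2* was 3.04 ± 2.77 CPM (SD, n = 7) in control and 4.70 ± 3.73 CPM (SD, n = 8) in methionine-rich pools. The log2 fold change was 0.53 (exact test of edgeR, FDR = 1), with 0.18 and an interval of -1.82 to 2.18 by voom, and it was 1.14 without C3.1.

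*PTGES3* (XLOC_017048), the cytosolic synthase better known as p23, a co-chaperone of HSP90 that holds steroid receptors ready for ligand, was abundant in every pool. Control pools ranged from 123.8 CPM (C4.2) to 970.0 CPM (C4.1), with a median of 253.3 CPM, so that the extremes were again pools of 1 cow. Methionine-rich pools ranged from 126.6 CPM (M7.1) to 504.6 CPM (M5.2), with a median of 260.9 CPM. The 2 medians differed little, and C1.1 and C4.1 lay above every methionine-rich pool. Means were 393.8 ± 308.2 CPM (SD, n = 7) in control and 293.0 ± 126.0 CPM (SD, n = 8) in methionine-rich pools, a log2 fold change of -0.47 (exact test of edgeR, FDR = 0.942) that moved to -0.04 without C4.1. The voom interval ran from -1.08 to 0.68.

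The pools of a cow differed in *PTGES3* by more than counting error in each of the 7 cows with 2 pools. Pool C4.1 held 7.83 times (exact 95% interval 7.32 to 8.40) the level of C4.2 and C1.1 held 3.03 times (2.86 to 3.21) that of C1.2, and the other 5 of these cows had ratios of 1.34 to 2.27. The mean absolute difference between pools of a cow was 1.23 on the log2 scale, against 0.985 over all pairings (exact permutation test, one-sided, p = 0.906). By cow, levels ran from 546.9 CPM in cow 4 and 438.1 CPM in cow 1 in control down to 190.1 CPM in the control cow 3 and 182.0 CPM in the methionine-rich cow 7 (exact permutation test over cows, two-sided, p = 0.4). The coefficient of variation over the 15 pools was 66.6% for *PTGES3* and 63.1% for *PTGS2*, below the median of 80.3% over all tested loci. It was 84.4% for *PTGES2*, 147.6% for *PTGES*, 286.6% for *PTGS1* and 292.0% for *CBR1*.

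*PTGDS* (XLOC_002768), the lipocalin-type synthase of prostaglandin D2, had no counts in any pool. The same was true of *SLCO2A1* (XLOC_000376), the carrier that takes prostaglandins into cells for breakdown. For either gene, a count of 0 in the deepest pool allows a level of up to 0.383 CPM there. If the level were the same in every pool, the zeros together would allow less. No fold change was computed.

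Of the genes that break prostaglandins down or convert them, *CBR1* passed the filter and *HPGD* did not. *CBR1* (XLOC_000437), a carbonyl reductase that converts prostaglandin E2 to F2 alpha, held 463 counts (63.1 CPM) in M6.1, 79.3% of its counts in the 15 pools. Pool C2.1 held 74 counts (13.2 CPM) and M6.2 held 38 counts, so both pools of cow 6 carried it, at a ratio of 9.86 (exact 95% interval 7.08 to 14.1). All other pools held 0 to 3 counts. Pool M6.1 also had the highest sum over the oviduct and endometrium list, 26.3 CPM against at most 5.26 CPM in any other of the 15 pools. That sum came mostly from 183 counts of *PGR*, the progesterone receptor. In M6.1 *OVGP1*, *MUC1* and *FOXJ1* held 0 counts, *PAX8* held 2 and *ESR1* held 8, so the list as a whole did not mark such epithelium. The hypoblast list also had its highest sum in M6.1, 336.4 CPM against at most 235.9 CPM in any other of the 15 pools. The cumulus and granulosa list summed to 56.5 CPM in M6.1, mostly from *CYP19A1* (355 counts), and to 69.0 CPM in C4.2. Pool C2.1 was the pool in which *VIM* and part of the leukocyte markers were high. Whether other cells had a part in the *CBR1* counts was not tested. Mean *CBR1* was 1.93 ± 4.95 CPM (SD, n = 7) in control and 8.78 ± 22.1 CPM (SD, n = 8) in methionine-rich pools, and the log2 fold change of 2.04 (exact test of edgeR, FDR = 0.968) became -1.08 without M6.1 and 6.77 without C2.1 (FDR = 0.189, against 0.822 for *PTGS2* in that fit). *CBR1* and *CBR3* are close paralogs, so reads could have been shared between them and both levels are uncertain.

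*HPGD* (XLOC_020268), the dehydrogenase that inactivates prostaglandins, had 37 counts in M6.1, 13 in C2.2, 9 in M7.2 and 2 in C1.2, and 0 in the other 11 of the 15 pools. Its level was 0.330 ± 0.750 CPM (SD, n = 7) in control and 0.801 ± 1.78 CPM (SD, n = 8) in methionine-rich pools, and it entered no test. Pool M6.1 held 60.7% of its counts in the 15 pools. The pool that was left out, C3.2, held 14 counts of *HPGD*, or 8.02 CPM, above every other pool.

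**Figure D3:**
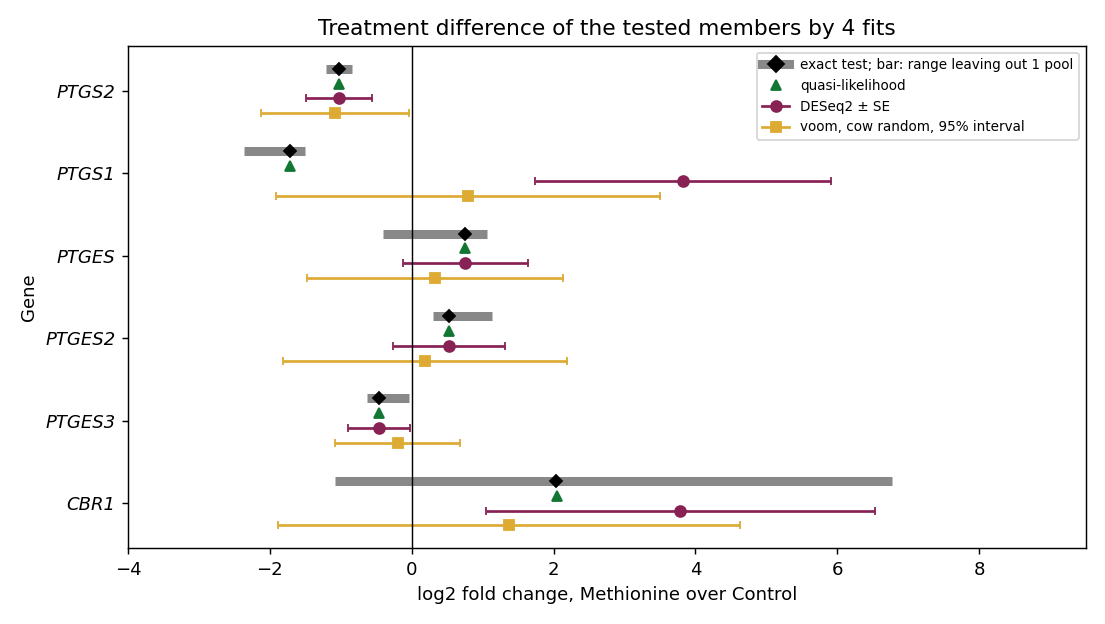
Log2 fold change, methionine-rich over control (horizontal), of the 6 tested members (vertical) by the exact test of edgeR with the range over leaving out each pool (grey bar), the quasi-likelihood test, DESeq2 with its standard error, and voom with its 95% interval. *PTGS2* stayed between -1.21 and -0.84 in the grey bar, the bars of *PTGES* and *CBR1* crossed 0, and the estimates of *PTGS1* ran from -1.71 to 3.83.

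The loci whose levels followed those of the better-covered members most closely over the 15 pools were ranked by Spearman correlation of log2(CPM + 0.5) among 7197 named loci with at least 10 counts in 8 or more pools. These values describe 15 pools that share cows and amplification, and carry no test. *PTGS2* ran most closely with *OSMR*, a receptor subunit for oncostatin M (0.846), *SLC35B2*, a Golgi carrier of the sulfate donor (0.811), and *PATL1*, an mRNA decapping factor (0.804). *PTGES3* ran with *PARG*, which degrades poly(ADP-ribose) chains (0.929), with *PRPF38A*, a splicing factor (0.889), and with *VPS41*, a lysosomal tethering subunit (0.889). *PTGES2* ran with *USP5*, a deubiquitinase (0.846), *UQCRC1*, a core subunit of respiratory complex III (0.814), and *PMM2*, a phosphomannomutase (0.814). Between the members themselves the correlation was 0.036 for *PTGS2* and *PTGES2*, -0.307 for *PTGS2* and *PTGES3* and -0.211 for *PTGES2* and *PTGES3*.

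The rest of the pathway was described by 9 lists with 105 genes, of which 95 were found, at 102 loci. Of these loci, 24 had 0 counts in the 15 pools and 44 were tested. *FABP5* was the 1 locus called by the exact test, higher in control, and 0 were called by the quasi-likelihood test. At an unadjusted p under 0.05, 5 of the 44 loci (11.4%) stood by the exact test, beside 8.54% of all tested loci, and 0 of the 44 had treatments that separated by cow. With each of the 15 pools left out in turn, the log2 fold change of 23 of the 44 loci changed sign in at least 1 fit. A locus that fell below the filter in a fit gave no value there. The share over all tested loci is not given, so this count is not read as particular to the lists.

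Upstream of the cyclooxygenases, 7 of 21 loci of arachidonate release were tested, 0 were called and their median log2 fold change was -0.44, while 8 loci had no counts, *PLA2G4A*, the cytosolic phospholipase A2 that feeds cyclooxygenases, among them. *PLA2G15*, a lysosomal phospholipase, was the most abundant, at 64.5 ± 29.0 CPM (SD) in control and 48.3 ± 32.7 CPM in methionine-rich pools (log2 fold change -0.45), followed by *PLAA*, an activator of phospholipase A2 (-0.35), and *PLA2G12A*, a secreted phospholipase (0.08). *PLAA* stood at -0.09 without C3.1 and *PLA2G12A* at -0.18 without M8.1. Among genes of desaturation, elongation and acyl-CoA formation, 9 of 11 loci were tested, 0 were called and the median was -0.11. *ACSL3*, an acyl-CoA synthetase of lipid droplets, was close to equal at 618.7 ± 263.1 CPM in control and 620.6 ± 165.0 CPM in methionine-rich pools (log2 fold change 0.01). *ACSL1*, another acyl-CoA synthetase, had -0.95 with 31.3% of its counts in C2.1, and 0.17 without that pool. *ELOVL5*, a fatty acid elongase, had 0.07.

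Among other terminal synthases and reductases, 4 of 9 loci were tested, 0 were called and the median was 0.20. *CBR3*, the paralog of *CBR1*, was present in every pool, at 74.2 ± 44.3 CPM in control and 79.7 ± 45.3 CPM in methionine-rich pools (log2 fold change 0.13), and *AKR1B1*, which makes prostaglandin F2 alpha in the bovine uterus, held 52.6 ± 23.8 and 47.5 ± 17.9 CPM (-0.15). *CBR4*, a mitochondrial reductase, had 0.26 (0.77 without C4.1). *CBR3* stood at -0.05 without M7.2 and *AKR1B1* at 0.02 without C3.1. Of other transporters, 3 of 9 loci were tested, 0 were called and the median was 0.60, with *ABCC4*, an exporter of prostaglandins, at 0.20 (-0.17 without M6.1). Another locus named *ABCC4*, with 54 counts over the 15 pools, was not tested. *SLCO2B1*, an uptake carrier of organic anions, had 0.60 with 38.5% of its counts in M8.1, and -0.62 without that pool. *ABCC1*, an exporter of conjugates, had 1.62 with 50.9% of its counts in M5.1, and did not pass the filter without it. Of other breakdown genes, 2 of 3 loci were tested and 0 were called, namely *PTGR2* (-0.31) and *PTGR1* (-0.22), both reductases of 15-keto prostaglandins, with a median of -0.27. Without C4.2 they stood at 0.02 and 0.66. *ZADH2*, the third in level in that list, did not pass the filter.

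Receptors of prostanoids were mostly without counts. *PTGER2*, *PTGER3*, *PTGIR*, *PTGDR*, *GPR44* and *TBXA2R* had 0 counts in the 15 pools. *PTGFR*, the receptor of prostaglandin F2 alpha, held 85 counts over the 15 pools, with 0 to 23 in any 1 pool, and *PTGER4*, a receptor of prostaglandin E2, held 55, with 40 of them in C2.1. Neither passed the filter. The 1 tested locus was *PTGFRN*, a tetraspanin partner that was named as a negative regulator of the F2 alpha receptor, at 43.5 ± 17.6 CPM in control and 59.2 ± 21.1 CPM in methionine-rich pools (log2 fold change 0.39, not called).

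Of the PPAR and RXR receptors and their cofactors, 6 of 12 loci were tested, 0 were called and the median was 0.29. The most abundant were the cofactors *NCOA1* (-0.15), *NCOR1* (0.59) and *MED1* (0.09), and without C4.2 *NCOA1* stood at 0.23 and *MED1* at -0.05. *PPARD*, the PPAR that binds a wide range of fatty acids, had a log2 fold change of 2.49 (exact test of edgeR, FDR = 0.510) with 1 to 15 counts in control and 0 to 111 counts in methionine-rich pools, most of them in M5.2 (109 counts) and M8.1 (111 counts), and the value was 1.75 without M8.1. Of *PPARG* targets, 7 of 12 loci were tested, 1 was called and the median was -0.20. *FABP3*, a fatty acid binding protein, held 279.1 ± 129.4 and 237.3 ± 71.1 CPM (-0.20), *PLIN2*, the coat protein of lipid droplets, 123.0 ± 57.6 and 163.8 ± 92.0 CPM (0.39), and *CPT1A*, which admits fatty acids to mitochondria, had 0.12. *FABP3* stood at 0.04 without C4.2 and *CPT1A* at -0.15 without M8.2.

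*FABP5*, a second fatty acid binding protein, was the called target, with a log2 fold change of -3.71 (exact test of edgeR, FDR = 0.0832). Pool C2.1 held 2102 counts of *FABP5*, 83.2% of those in the 15 pools, while the other pools held 1 to 119, and without C2.1 the log2 fold change was 0.09 (FDR = 1). The quasi-likelihood test gave it FDR = 0.323. *LPL*, the lipase of circulating fat (-5.79, FDR = 0.223), had 97.1% and *ALOX5AP*, the partner of 5-lipoxygenase (-7.77, FDR = 0.256), 100% of its counts in C2.1. The fitted value of *ALOX5AP* depends on the prior count, since every other pool was at 0. Neither locus passed the filter without that pool. These 3 fold changes therefore rested on C2.1, the pool in which part of the leukocyte markers was high.

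Lipoxygenases compete for the same arachidonic acid. The list of the lipoxygenase and leukotriene branch also held genes that are neither lipoxygenases nor leukotriene synthases, such as *EPHX2*. Of its loci, 5 of 15 were tested, 0 were called and the median was -2.01. *EPHX2*, the soluble epoxide hydrolase, was the most abundant, at 10.9 ± 6.40 CPM (SD, n = 7) in control and 32.6 ± 24.5 CPM (SD, n = 8) in methionine-rich pools. Its log2 fold change was 1.63 (exact test of edgeR, FDR = 0.286), with 526 and 465 counts in the pools of cow 8 and 11 counts in M7.2, and the cows overlapped (exact permutation test, two-sided, p = 0.114). It was 1.33 without M8.1. *CYP4F2*, which hydroxylates leukotriene B4, held 0 to 736 counts in control and 0 to 158 in methionine-rich pools (-2.01, and -0.47 without C4.1). Another locus named *CYP4F2* had 0 counts in the 15 pools. *LTA4H*, which makes leukotriene B4, held 0 to 52 and 0 to 84 counts (0.45, and -0.15 without M5.1).

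**Figure D4:**
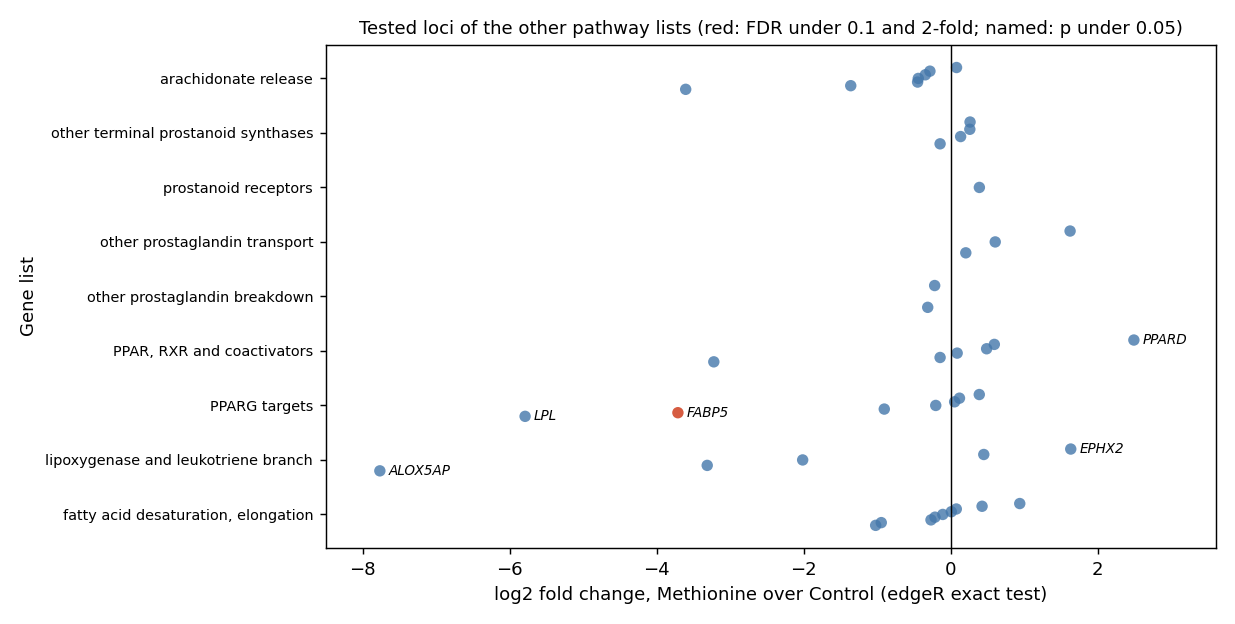
Log2 fold change, methionine-rich over control by the exact test of edgeR (horizontal), of each of the 44 tested loci in the 9 lists of related genes (vertical), with the called locus in red and names on the 5 loci at an unadjusted p under 0.05. Of the 3 named loci left of 0, *LPL*, *ALOX5AP* and *FABP5*, between 83.2% and 100% of the counts came from C2.1.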

How the data were processed

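RNA of embryo pools was amplified and sequenced on an Illumina instrument. The authors mapped reads to the bovine genome bosTau7 with TopHat2 2.0.4, assembled transcripts with Cufflinks 2.0.2 and counted reads per locus with HTSeq, as the study's methods and the submitters' processing notes state. The strand setting is not given in the sources used here. The deposited values are whole-number counts, not normalized, in 1 table per pool with 22552 rows for 22358 loci, since 182 loci are listed under several names, and each locus was entered once.

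Members and lists were chosen with earlier results of these data known. Named genes were the members (the locus of *PPARG* is not reported here), every called locus of the pathway lists, the 3 genes of each list with the highest mean CPM, and the 3 named loci most correlated with each member that had 10 counts in 8 or more pools. The loci at an unadjusted p under 0.05 were named after their values were seen, as were receptors without counts and *PLA2G4A*.

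Loci with summed CPM of at least 15 over 15 pools were tested once, in R 4.3.3, by the exact test of edgeR 4.0.16 (TMM normalization, common and tagwise dispersion, prior count 0.125, Benjamini-Hochberg adjustment over 10519 loci), after the study's methods. The common dispersion was 1.14. Alternatives were the quasi-likelihood test of edgeR, DESeq2 1.42.0, voom of limma 3.58.1 with cows as random effects, other normalizations and filters, summed pools, all 16 pools, and cows or pools left out. Cow means were compared by exact permutation tests, and shares of counts were given 95% Wilson intervals, which like the floor of 3 counts cover counting error only. The code was tested on simulated data. Counts of any 2 pools differed by far more than sampling noise (chi-square divided by its degrees of freedom at least 64.4). Sire, lane, blastocyst number and RNA quality were not used. Positions and sequences were not used here, since no genome of the build of the files was at hand.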

Additional observations from a re-analysis of the deposited data

Results flagged for a closer look

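In 7 of the 14 combinations of member and treatment that could be examined, 1 pool stood apart from the rest of its treatment by Dixon's criterion, which chance alone would mark in about 1 of 20 groups of normally spread values. Counts of amplified RNA are not normally spread, and the share over all tested loci was not computed. The count of 7 is therefore not read as a trait of the members. Pool M6.1 was the high pool for *CBR1* (63.1 CPM, next highest methionine-rich pool 6.40 CPM) and *HPGD* (5.04 CPM, next 1.37 CPM). Pool C2.1 was the high pool for *CBR1* (13.2 CPM, next highest control pool 0.386 CPM). Pool C2.2, of the same cow, was the high pool for *PTGS1* (19.2 CPM, next 0.178 CPM) and *HPGD* (2.01 CPM, next 0.300 CPM). Pool M5.2 stood apart for *PTGES* (12.7 CPM, next 2.43 CPM) and C3.1 for *PTGES2* (9.03 CPM, next 2.79 CPM). *PTGS2* and *PTGES3* had no such pool in either treatment.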

How the results depend on the processing

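No member was called under any alternative that gave it a value. The count of 110 called loci became 0 by the quasi-likelihood test, 0 by voom, 0 with at least 10 counts in every pool, 67 by DESeq2, 55 without a filter, 356 with all 16 pools and 64 without C2.1. It ranged from 62 to 153 over the cows left out in turn (62 without cow 8, 66 without cow 7) and from 64 to 151 over the pools left out in turn (64 without C2.1, 71 without M5.2), the latter an alternative chosen after seeing the data, as were the fits of the pathway lists with a pool left out. The cause of these shifts was not tested.

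*PTGS2* kept its direction throughout, at -1.24 to -0.81 over cows and -1.21 to -0.84 over pools left out. *PTGES2* ranged from 0.23 to 1.14 over cows and 0.29 to 1.14 over pools, and *PTGES3* from -0.62 to -0.20 and -0.63 to -0.04. *PTGES* ranged from -0.44 (without cow 5) to 1.60 over cows and from -0.41 (without M5.2) to 1.06 over pools, and *CBR1* from 1.54 to 6.54 and from -1.08 (without M6.1) to 6.77. *PTGS1* ranged from -2.28 to -1.29 over cows and -2.37 to -1.50 over pools, but reversed in DESeq2 (3.83), in voom (0.79) and as the cow difference of log2 means (0.21). *PTGS1* gave no value without cow 2 or C2.2, *CBR1* none without cow 6, and with 10 counts in every pool only *PTGS2* and *PTGES3* gave values.

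The pool numbers in the labels name the pools of a cow and pair no samples across treatments. The median correlation of deviations from treatment means was -0.0044 between pools of the same number and 0.0069 between pools of different numbers. A replicate block on this number in the quasi-likelihood test left 0 loci called and *PTGS1* at a log2 fold change of 0.030.

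Counts of 0 to 3 in most pools limited *PTGS1*, *CBR1* and *HPGD*. Transcript lengths were not at hand, so the rankings of genes by CPM within the lists are not corrected for length.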
